A study of Saccharomyces cerevisiae with 10 samples.

Results

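The response described here is the one shared by 3 budding yeast strains that each lack a gene of the THO/TREX complex, set against their wild type. It was measured as the equal-weight mean of the 3 mutant strain means against the wild-type mean, for every probe set with at least 2 values in each of the 4 strains. This rule took 4466 of the 5716 probe sets on the array (78.13%), of which 4306 are annotated to a gene (4276 genes) and 160 are not. Of the 1250 probe sets left out, 1197 lacked values only in the sub2del or tho2del strain, and those left out were dimmer (median intensity of 699.5 for those left out, 1700 for those kept).

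THO is a nuclear complex that joins RNA polymerase II during elongation and helps package the growing mRNA, and with the helicase Sub2 and the adaptor Yra1 it forms TREX, which couples transcription to mRNA export. Hpr1, Tho2, Mft1 and Thp2 are its core subunits, and Tex1 associates with them. Yeast cells without THO are known for transcription-dependent recombination and for RNA-DNA hybrids (R-loops) behind the polymerase. Loss of Sub2 is known to resemble loss of THO in these respects.

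Total RNA of mid-log cultures in YPAD, a rich glucose medium with added adenine, was hybridised to 10 single-colour Affymetrix arrays. The groups were W303-1A (WT, 3 arrays), hpr1∆::kanMX4 (hpr1del, 3 arrays), sub2∆::HIS3 (sub2del, 2 arrays) and tho2∆::KanMX4 (tho2del, 2 arrays). All 4 strains are MATa and share the alleles ade2-1 and can1-100 as well as his3-11,15 and leu2-3,112, with trp1-1 and ura3-1 besides. Each genotype is 1 strain, and the labels call its arrays biological replicates without saying how the cultures were grown, so a p-value here reflects only how far these arrays spread. Since the RNA came from whole cultures, more cells of a kind (for instance of one cell cycle stage) and more RNA per cell cannot be told apart. Intensities are on a linear scale, and differences are on the scale of log2(intensity + 16), where the offset of 16 understates the change of dim genes. A difference was called when its limma p, adjusted over all 4466 probe sets by the Benjamini-Hochberg method, was under 0.05.

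Several properties of the arrays bear on what follows. WT arrays varied most: their SD on the log2 scale averaged 0.21 over probe sets, and that of the mutants 0.07 to 0.10. Between 414 and 811 cells were empty in WT replicate 2 and on the sub2del and tho2del arrays, and between 7 and 66 on the others. For 174 of the probe sets WT therefore had 2 values only. All hpr1del arrays thus had few empty cells, and all sub2del and tho2del arrays had many. Differences between hpr1del and the other mutants, here and in the F test below, cannot be told apart from whatever set these numbers. As a check of the MATa label, the a-factor genes MFA1 and MFA2 read from 1635 to 13748 and from 2816 to 10860 on the 10 arrays. The alpha-factor genes MF(ALPHA)1 and MF(ALPHA)2 read from 29.8 to 87.4 and from 53.7 to 222. The other alpha genes were less low: STE3 read from 150 to 345, and SAG1 from 600 to 749 in WT and from 1048 to 3782 in the mutants. STE2, STE6, BAR1 and ASG7, the other MATa genes checked, lacked values on some arrays. HIS3, a mutant allele in all 4 strains and also the marker that replaces SUB2, read 1358, 3109 and 2380 in WT and from 321 to 509 on the 7 mutant arrays. LEU2, likewise a mutant allele in all 4 strains, read 5043, 7901 and 5399 in WT, 2595 to 3041 in hpr1del, 639 and 745 in sub2del, with 1029 and 1127 in tho2del. These levels differed although the labels give all 4 strains the same alleles, and every comparison below rests on the same 3 WT arrays. The part of strain background in the results was not tested.

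The sub2del arrays carried a shift of chromosomes II and X that the other mutants did not. Chromosome names are those of the R64 gene table. On both sub2del arrays the median probe set of chromosome II lay 0.44 and 0.40 above WT on the log2 scale, and that of chromosome X lay 0.58 and 0.57 above. The median of the other 14 chromosomes lay at -0.21 and -0.26. Among these 14, chromosome V lay lowest, at -0.44 and -0.42. On both tho2del arrays chromosome V lay at -0.20, against -0.07 and -0.05 for the 14 together. The cause was not tested. Between sub2del and tho2del, 96.92% of the 260 named probe sets on chromosome II and 98.98% of the 196 on chromosome X were higher in sub2del, against 20.23% of the 3850 on the other 14. The shift ran along both chromosomes, with medians from 0.51 to 0.69 in the windows of 100 kb on chromosome II and from 0.57 to 0.75 on chromosome X. DNA copy number was not measured here, and its part in the shift was not tested. The main counts and some gene groups are given with and without these chromosomes, and genes on them are marked. A group given without a second count may hold genes on them too.

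**Figure D1:**
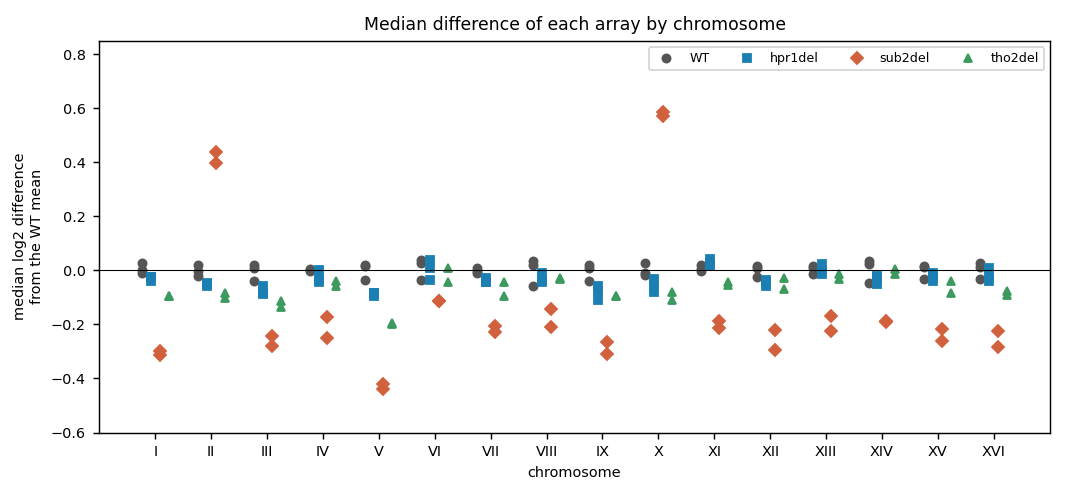
Median log2 difference of each array from the WT mean (y axis, log2 of intensity + 16) over the named probe sets of each chromosome (x axis), with 1 point per array. Both sub2del arrays lie between 0.40 and 0.58 on chromosomes II and X and below 0 on the other 14, and the hpr1del and tho2del arrays show no such split.

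Of the 4466 probe sets, 2772 (62.1%) were called in the mean of the 3 mutants against WT, 1086 higher (24.3%) and 1686 lower (37.8%). At least 2-fold changes were seen in 121 that were higher and 308 that were lower. Over all probe sets the median log2 difference was -0.09. By strain, 46.5% of probe sets were called in hpr1del, 941 higher (21.1%) and 1137 lower (25.5%). The share was 62.7% in sub2del, with 943 higher (21.1%) and 1856 lower (41.6%), and 57.7% in tho2del, with 1083 higher (24.2%) and 1494 lower (33.5%). Without chromosomes II and X, 864 of 3850 were higher and 1518 lower in the mean.

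A shared response was counted more strictly. A probe set was taken as common to the 3 mutants when the mean was called, each mutant was called in the same direction, and all 7 mutant arrays lay beyond all WT arrays. This held for 1244 probe sets (27.9%), 459 higher (10.3%) and 785 lower (17.6%). Without chromosomes II and X it held for 383 that were higher and 715 that were lower. Counts within a gene group stand beside these shares: a group with about 24.3% higher and 37.8% lower is like the array as a whole. The common set leaned downward, and its changes were mostly moderate: the median log2 difference was 0.68 for those that were higher and -0.80 for those that were lower. Even the least changed mutant differed by 2-fold or more in 36 of the higher and 140 of the lower probe sets. That least changed strain was hpr1del in 809 of the 1244, tho2del in 225 and sub2del in 210. The most changed one was sub2del in 673, tho2del in 397 and hpr1del in 174. In hpr1del, sub2del and tho2del the median was 0.56, 0.69 and 0.75 for the higher part and -0.61, -0.98 and -0.83 for the lower part. Over all probe sets the strain medians were -0.03, -0.17 and -0.07, and these were not subtracted. The part of that offset in the ranks was not tested. A moderated F test among the mutants, which uses no WT array, was called in 744 of the 1244, so that the size of a shared change often differed between strains. Over all 4466 probe sets this test was called in 2596 (58.1%).

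The genes of the complex itself were read first. HPR1 read 517, 572 and 629 in WT, 188, 209 and 209 in hpr1del, 576 and 541 in sub2del and, in tho2del, 651 and 686. It was thus low only in its own strain, by 1.43 on the log2 scale (adjusted p = 8.26e-06). SUB2 read from 11974 to 13406 on the 8 arrays of the strains that keep it, and 104 and 54.6 in sub2del. Its mean over the 3 mutants (log2 -2.31) is that of 1 strain alone, and it was not part of the common set. THO2 differed from both. It read 2483, 2556 and 2363 in WT, 322 and 183 in tho2del, but also 1428, 1308 and 1411 in hpr1del and 1257 and 1116 in sub2del. All 7 mutant arrays lay below the WT arrays, and the 2 strains that keep THO2 were lower by 0.83 and 1.05 on the log2 scale (adjusted p = 0.00368 and 0.00111). MFT1 was common and higher, from 809 to 905 in WT, 1079 to 1101 in hpr1del, 1469 and 1677 in sub2del, with 1618 and 1563 in tho2del. YRA1 was also common and higher (log2 0.55 ± 0.06, SE, adjusted p = 9.26e-05), with 7001 to 8411 in WT against 10303 to 11922 on the mutant arrays. THP2 was not called in the mean (log2 -0.13, adjusted p = 0.0847). TEX1 was (log2 -0.29, adjusted p = 0.02), but its WT arrays overlapped those of hpr1del.

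Around the complex, the wider list of THO/TREX and mRNA export genes had 9 of 22 higher and 8 lower, with a median of 0.00. This count holds the 3 deleted genes, each low in its own strain, and without them 9 of 19 were higher and 5 lower (median 0.06). CDC31, a centrin shared by the export complex TREX-2 and the spindle pole, was common and higher (log2 0.82 ± 0.06, adjusted p = 6.86e-06). Nuclear pore genes moved little as a group: 7 of 25 were higher and 5 lower, with a median of 0.00 and 1 gene common in each direction. These were SEH1 (log2 0.43), higher, and NUP157 (log2 -0.38), lower. Of 16 genes of the nuclear exosome and its TRAMP cofactor, which degrade unprocessed nuclear RNA, 4 were higher and 2 lower. LRP1 (log2 0.51) and CSL4 (log2 0.55), an exosome cofactor and a subunit, were higher, and AIR2 (log2 -0.65), a TRAMP subunit, was lower, each common to the 3 mutants.

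Of 14 transcription elongation factors 9 were higher and 1 lower (median 0.39). POB3, a subunit of the histone chaperone FACT, read 2967 to 3242 in WT, 4579 to 4740 in hpr1del, 5205 and 5523 in sub2del and, in tho2del, 5405 and 5409. It was in the common set, whose rule puts every mutant array beyond WT, and the mean difference was 0.74 ± 0.05 (adjusted p = 6.08e-06). RTF1 of the Paf1 complex (0.65 ± 0.05), the kinase gene CTK1, whose product phosphorylates the polymerase tail (0.92 ± 0.08), and SPN1 (0.53 ± 0.06) were common as well. The list of genes that remove R-loops or relax supercoils held no common member among 9. Of its called genes, TOP1, the main relaxing topoisomerase, was at 0.97 in the mean but at 0.26 in hpr1del (adjusted p = 0.14). RNH1, a ribonuclease H, was at -0.63 in the mean, with 502 to 621 in WT, 421 to 467 in hpr1del, 213 and 298 in sub2del, with 385 and 419 in tho2del.

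The 15 named genes that rose most in all 3 strains, ranked by the strain in which each changed least, included KRE28 of the kinetochore, KAR1 of the spindle pole and the mitotic regulators SPO12 and ACM1. CRG1, a methyltransferase gene, headed the rank: it read 1358, 466 and 745 in WT, 4391, 4673 and 4490 in hpr1del, 3237 and 3684 in sub2del and, in tho2del, 3989 and 3637. In hpr1del, sub2del and tho2del it was 2.51, 2.12 and 2.27 above WT on the log2 scale (F test adjusted p = 0.576), and the mean was 4.92-fold above WT (log2 2.30 ± 0.26, adjusted p = 8.24e-05). KRE28, a kinetochore gene, read 210, 188 and 223 in WT, 626, 658 and 657 in hpr1del, 930 and 1057 in sub2del, with 1111 and 1299 in tho2del. The groups lay far apart, at 4.20-fold in the mean (log2 2.07 ± 0.08, adjusted p = 4.63e-07). KAR1, which builds the bridge of the spindle pole body, read 359 to 384 in WT, 894 to 967 in hpr1del, 2710 and 2840 in sub2del and, in tho2del, 2673 and 3391, a 5.17-fold mean difference (log2 2.37 ± 0.08). The rise in hpr1del was the smallest (log2 1.29 against 2.85 and 2.97, F test adjusted p = 1.78e-05). SPO12, a mitotic exit gene, read 838 to 987 in WT and 2392 to 3194 on the 7 mutant arrays. ACM1, which encodes an inhibitor of the anaphase-promoting complex, read 496 to 654 in WT and 1381 to 1600 in the mutants. By strain (hpr1del, sub2del, tho2del) the log2 rise was 1.43, 1.47 and 1.78 for SPO12 (F test adjusted p = 0.0155) and 1.42, 1.28 and 1.29 for ACM1 (F test adjusted p = 0.444).

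The other genes at the top were of mixed roles. NOP16, a ribosome biogenesis gene, rose from 1925 to 2056 in WT to 5374 to 5806 in hpr1del and 8936 to 11877 in the other mutants (log2 2.05 ± 0.06, adjusted p = 2.22e-07). BIO2, the biotin synthase gene, read 830, 444 and 377 in WT, 1742 to 1842 in hpr1del, 6096 and 6510 in sub2del, with 5096 and 5199 in tho2del (log2 2.86 ± 0.20, adjusted p = 6.68e-06). ARO10, a decarboxylase gene of aromatic amino acid breakdown, read 401 to 496 in WT, 1153 to 1441 in hpr1del and 3893 to 5947 in the others (log2 2.74 ± 0.09). The G1 cyclin gene PCL1 (log2 1.57 ± 0.14), the kinase gene KDX1, a relative of the cell wall integrity kinase Slt2 (1.49 ± 0.11), the a-factor gene MFA1 (1.94 ± 0.21), and the uncharacterised YNL058C (1.80 ± 0.10) and YMR001C-A (1.71 ± 0.40) completed the list, with 2 genes on the shifted chromosomes. CHM7 on chromosome X, a gene of nuclear envelope surveillance, read 339, 427 and 385 in WT, 1348, 1367 and 1513 in hpr1del, 5562 and 5330 in sub2del and, in tho2del, 2894 and 3455. TIP1 on chromosome II, a cell wall mannoprotein gene, read 8449, 2947 and 2314 in WT, 10471 to 11938 in hpr1del, 20595 and 21619 in sub2del, with 17298 and 17396 in tho2del. The rule of the common set already requires both to lie above WT in every mutant. In hpr1del and tho2del, which did not have the shift of chromosomes II and X, the size was 1.84 and 3.00 for CHM7 (log2). For TIP1 it was 1.55 and 2.16.

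**Figure D2:**
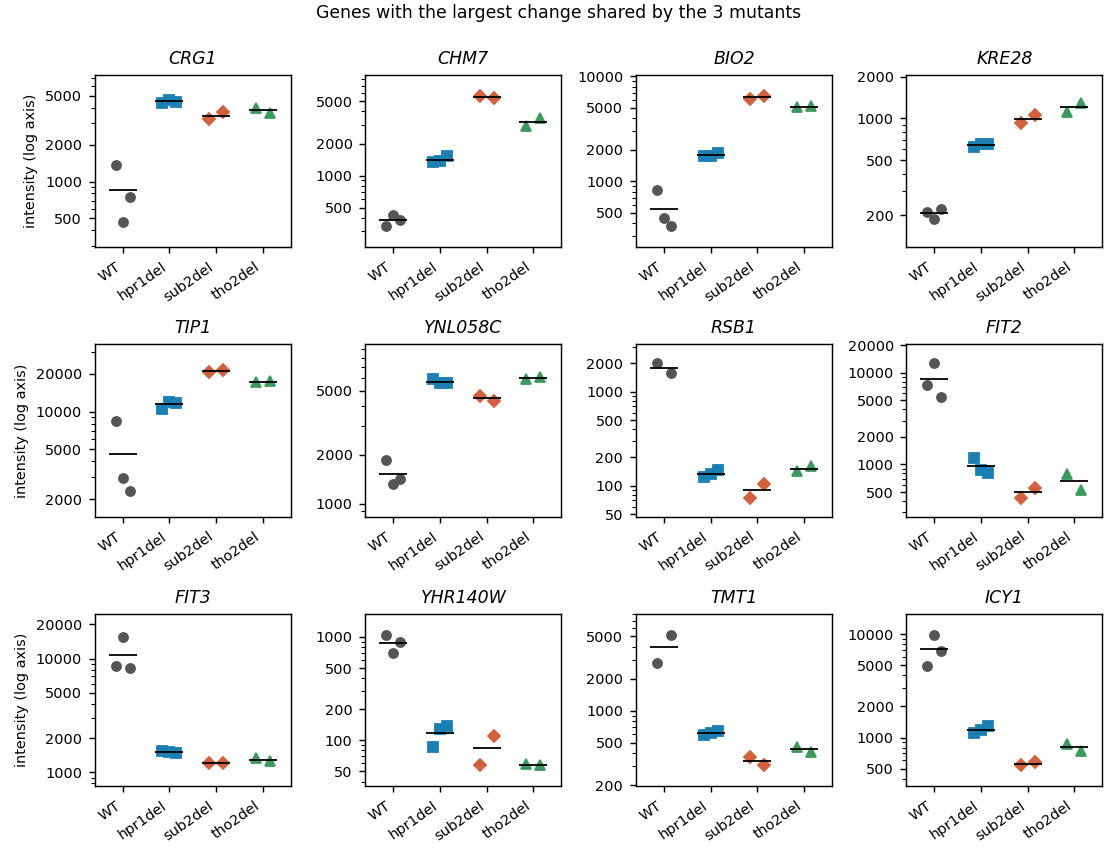
Intensity (y axis, log scale, a scale of its own in each panel) of the 6 named genes with the highest and the 6 with the lowest common change, with 1 point per array and a bar at the strain mean. In every panel all mutant arrays lie on one side of all WT arrays, as the rule by which these genes were selected requires. RSB1 and TMT1 have 2 WT values each.

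Cell cycle genes were described by stage. Of 28 genes of the G1/S transition, 19 were higher and 3 lower (median 0.68), and 14 were common and higher. PCL1, CLN1 and CLN2 encode G1 cyclins. PCL1 read 955, 642 and 718 in WT, 2470 to 2806 in hpr1del, 2484 and 1755 in sub2del and, in tho2del, 2209 and 2170. The histone chaperone gene ASF1 on chromosome X (log2 0.96), the polarity genes GIC2 (0.84) and SPH1 (0.97) and the activator gene SWI6 (0.89) had the lowest adjusted p of the list, from 4.41e-06 to 1.02e-05. On the chromosomes other than II and X, 14 of 23 were higher and 3 lower (median 0.63).

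Mitotic genes were mostly called higher. Of 23 genes of G2/M and mitotic exit, 16 were higher and 2 lower (median 0.59), with 13 common and higher. CLB4, a B-type cyclin gene, read 522, 564 and 602 in WT, 1074 to 1125 in hpr1del, 1263 and 1300 in sub2del, with 1277 and 1223 in tho2del (log2 1.08 ± 0.06, adjusted p = 1.94e-06). The kinase genes KIN3 (1.25 ± 0.08) and ALK1 (0.92 ± 0.07) changed alike. Of 22 genes of the kinetochore and spindle pole, 16 were higher and 2 lower (median 0.46), with 8 common and higher and 2 common and lower. A further 18 genes of this list on the array were not among the probe sets kept. CSE4, the centromeric histone H3 variant, read 387 to 462 in WT, 872 to 1020 in hpr1del and 1078 to 1362 in the other mutants (log2 1.39 ± 0.08). DAD4, of the ring complex that holds kinetochores to microtubules, rose by 1.02 ± 0.10, and SPC25, of the Ndc80 complex, fell by 1.02 ± 0.09, each common to the 3 strains.

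Daughter cell and cell separation genes, which are switched on after mitosis in daughter cells, were mostly lower. This list was put together after DSE4 and PRY3 were seen among the lowest genes, so its count describes them and supports nothing. DSE4, a glucanase gene that frees the daughter, read 3398, 4944 and 4793 in WT, 730 to 784 in hpr1del, 651 and 671 in sub2del and, in tho2del, 574 and 628 (log2 -2.66 ± 0.11, adjusted p = 8.98e-07). PRY3 on chromosome X, a cell wall protein gene, read 5003 to 5625 in WT and 706 to 1166 on the mutant arrays (log2 -2.45 ± 0.07). EGT2 (log2 -0.86 ± 0.06) was common and lower, and in all 9 of 13 were lower and 1 higher. That one was ASH1, a daughter-specific repressor gene (log2 0.59), named after its value was seen.

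Replication, checkpoint and recombination genes were called higher in part. Of 38 genes of the replication machinery 20 were higher and 9 lower (median 0.21), with 10 common and higher and 2 common and lower. On the chromosomes other than II and X 14 of 30 were higher and 7 lower. RFA1, the large subunit of the single-strand binding protein RPA, read 1587 to 1778 in WT, 2735 to 2878 in hpr1del, 2526 and 2552 in sub2del, with 2897 and 2973 in tho2del (log2 0.70 ± 0.05, adjusted p = 8.18e-06). MCM2, a helicase subunit gene, and POL30, the sliding clamp gene, both on chromosome II, rose by 0.69 and 0.76 in the mean and by 0.47 and 0.61 in hpr1del alone. RFA3 on chromosome X, a further RPA subunit, rose by 0.80 in the mean and by 0.46 in hpr1del. Of 15 checkpoint and ribonucleotide reductase genes 8 were higher and 3 lower (median 0.23). RAD53, the checkpoint kinase gene, read 374 to 407 in WT, 615 to 649 in hpr1del, 585 and 594 in sub2del and, in tho2del, 721 and 757 (log2 0.71 ± 0.05). RAD17, of the checkpoint clamp (0.51 ± 0.06), and RNR2, a ribonucleotide reductase subunit on chromosome X (0.36 ± 0.06), were common. HUG1, a damage-induced inhibitor of that enzyme, was not common: it read 281 to 357 in WT, 605 to 668 in hpr1del and 917 and 922 in tho2del, but 380 and 329 in sub2del (adjusted p = 0.261 for sub2del, F test adjusted p = 0.000123).

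Homologous recombination genes had 6 of 13 higher and 0 lower, with 4 common and higher. RAD52, the central recombination mediator gene, read 686, 885 and 767 in WT, 1268, 1241 and 1275 in hpr1del, 1328 and 1311 in sub2del, with 1317 and 1347 in tho2del. The 3 mutants lay at nearly one level, 1.67-fold above WT (log2 0.74 ± 0.07, adjusted p = 4.24e-05), and the F test among them was not called (adjusted p = 0.72). RDH54 on chromosome II, a translocase gene of strand invasion, read 2028 to 2209 in WT, 4425 to 5033 in hpr1del, 7798 and 7349 in sub2del and, in tho2del, 4828 and 5271. EXO1, an exonuclease gene of end resection (log2 0.56 ± 0.05), and PSY3 (1.02 ± 0.10, 2 WT values) were the others.

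Among the lists that leaned higher, that of the proteasome had the largest share of called genes. Of 33 proteasome genes 30 were called higher and 0 lower (median 0.49), 24 of them common to the 3 mutants. The median of the list lay from 0.37 to 0.62 above the WT mean on the 7 mutant arrays and within 0.02 of it on the WT arrays. RPN4, the gene of the transcription factor that drives proteasome expression, read 3320, 2962 and 2522 in WT, 5646, 6023 and 6472 in hpr1del, 7207 and 6571 in sub2del, with 7609 and 8183 in tho2del (log2 1.24 ± 0.09, adjusted p = 7.35e-06). RPN6, a lid subunit gene, rose by 0.79 ± 0.05. RPN11, the deubiquitinase of the lid, rose by 0.34 in hpr1del and by 1.23 and 1.27 in sub2del and tho2del (F test adjusted p = 0.000131). UMP1 on chromosome II, an assembly factor gene, stood 1.83 above WT in sub2del against 0.60 and 0.61 in the other mutants.

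Ribosome biogenesis factors were higher in 31 of 50 cases in the mean and lower in 2 (median 0.23). Only 9 of the 50 were common and higher, and the F test among the mutants was called in 27. The tho2del strain leaned most, with 33 higher and 1 lower. For sub2del the counts were 20 and 6, and for hpr1del 18 and 2. NOP16, RRP14 (log2 1.22 ± 0.10), MAK16 (0.89 ± 0.09) and NOP4 (0.58 ± 0.06) had the lowest adjusted p of the list. For MAK16 and NOP4 hpr1del was not called (adjusted p = 0.0598 and 0.057). The ribosomal protein genes themselves did not follow. Of 116 cytosolic ones 12 were higher and 22 lower, and their median of -0.02 turned to 0.06 once array medians were subtracted. RPS22B and RPS9A stood out in sub2del, at log2 -1.95 and -2.60, and RPS22B was at -0.09 and 0.11 in hpr1del and tho2del. Many ribosomal protein genes come in near-identical pairs whose probe sets may share signal.

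Cell wall genes changed in both directions, and pheromone genes were called only higher. Of 29 genes of the cell wall integrity pathway and cell wall 16 were higher and 7 lower (median 0.19), with 12 and 7 in sub2del. The higher ones included CRH1, a transglycosylase gene (log2 0.74 ± 0.05), and PRM5 (1.14 ± 0.08), both common. CHS3 on chromosome II, a chitin synthase gene, rose by 0.77 ± 0.06, and by 0.64 and 0.61 in hpr1del and tho2del. The surface sensor and protease genes SLG1 and YPS1, named after their values were seen, were lower in the mean (log2 -0.64 and -0.94). Of 11 MATa and pheromone genes 8 were higher and 0 lower (median 0.70), and on the chromosomes other than II and X 5 of 8 were higher (median 0.41). MFA1 read 2656, 1635 and 1962 in WT, 4011, 7348 and 7140 in hpr1del, 6418 and 6069 in sub2del and, in tho2del, 12541 and 13748. FAR1 on chromosome X, the cell cycle inhibitor of the pheromone response, rose by 1.14 ± 0.16. AGA1, the agglutinin anchor gene, rose in hpr1del and tho2del (1.07 and 1.08), and in sub2del its difference was -0.04 (F test adjusted p = 0.000589).

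Iron uptake had the lowest median of all gene lists. All 7 measured genes of siderophore uptake and FIT mannoproteins, which hold iron chelates at the cell wall and carry them in, were lower and common (median -2.38). FIT2 read 7350, 12837 and 5444 in WT, 1189, 862 and 800 in hpr1del, 430 and 559 in sub2del, with 793 and 524 in tho2del (log2 -3.55 ± 0.26, adjusted p = 7.88e-06). FIT3 read 8693, 15573 and 8248 in WT and from 1209 to 1549 on the mutant arrays, with hpr1del, sub2del and tho2del at -2.77, -3.08 and -2.99 on the log2 scale (F test adjusted p = 0.442). ENB1, the enterobactin transporter gene, fell by 2.58 ± 0.20 and ARN2, a further siderophore transporter gene with 2 WT values, by 2.07 ± 0.10. In WT replicate 2 the median of this list lay 0.54 above the WT mean, and the mutant arrays lay from 1.81 to 2.82 below it.

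The reductive route of iron and copper uptake was lower in 18 of 21 cases and higher in 1 (median -1.08). FET3, the multicopper oxidase gene of high-affinity iron uptake, read 6877, 7758 and 6445 in WT, 3107, 1921 and 1756 in hpr1del, 583 and 544 in sub2del and, in tho2del, 717 and 700. The fall was graded, with hpr1del at -1.67 and the other mutants at -3.60 and -3.28 on the log2 scale (F test adjusted p = 0.000245). FRE1, a metal reductase gene (log2 -2.65 ± 0.13), and SMF3, a vacuolar iron exporter gene (-1.64 ± 0.07), were common. CTR1, the copper transporter gene, fell by 3.71 and 3.27 in sub2del and tho2del and by 0.70 in hpr1del, whose arrays at 4656 to 5667 overlapped WT at 5624 to 10759.

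**Figure D3:**
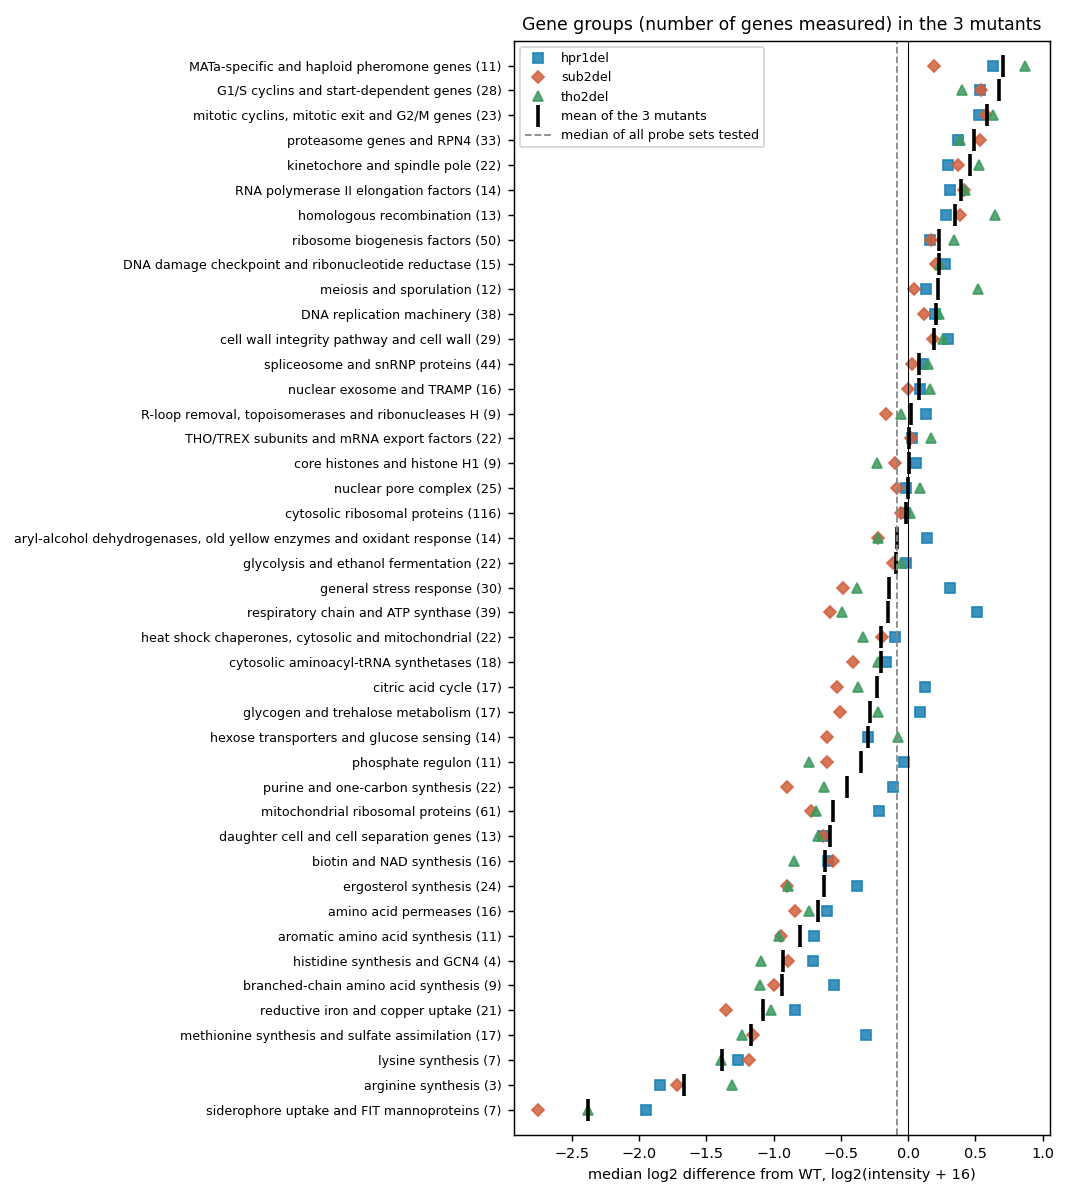
Median log2 difference from WT (x axis, log2 of intensity + 16) of each gene group (y axis, with the number of genes measured) in hpr1del, sub2del and tho2del, with the median of the mean contrast as a black bar and the median of all probe sets as a dashed line. In the mean contrast siderophore uptake lies lowest at -2.38 and pheromone genes lie highest at 0.70, with sub2del at 0.19 for the latter. The respiratory chain has hpr1del at 0.51 on the opposite side of 0 from the other mutants.

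Amino acid synthesis was lower along nearly every branch in the mean of the 3 mutants. All 7 lysine genes were lower and common (median -1.39), and so were the 3 arginine genes kept (median -1.67), while 5 arginine genes on the array were not kept. LYS12, homo-isocitrate dehydrogenase, read 8653, 14693 and 12534 in WT, 4621, 4777 and 4834 in hpr1del, 3673 and 3395 in sub2del, with 3541 and 3035 in tho2del (log2 -1.62 ± 0.14, adjusted p = 2.16e-05). The 3 WT arrays spread more than the 7 mutant arrays did, and no mutant array reached WT, as the rule of the common set requires. ARG1, argininosuccinate synthetase, read 15991 to 21764 in WT, 3613 to 4697 in hpr1del, 5678 and 5871 in sub2del and, in tho2del, 5546 and 5926, the lowest level being in hpr1del. Of 4 genes of histidine synthesis and its regulator GCN4, 3 were lower and 0 higher (median -0.93). Of 17 genes of methionine synthesis and sulfate assimilation 14 were lower and 1 higher (median -1.17), of 9 branched-chain genes 9 were lower (median -0.94), and of 11 aromatic genes 9 were lower and 1 higher (median -0.80). The methionine list differed by strain, with a median of -0.315 in hpr1del (8 lower, 2 higher) against -1.155 in sub2del and -1.233 in tho2del. Of its 17 genes 8 were common and lower, and 2 were called in opposite directions in 2 mutants. ARO3, which opens the aromatic pathway and has 2 WT values, fell by 1.43 ± 0.06 and MET2, an early enzyme gene of methionine synthesis, by 1.34 ± 0.09, MET2 being at -1.36, -1.44 and -1.23 in hpr1del, sub2del and tho2del (F test adjusted p = 0.343). SAM1, an S-adenosylmethionine synthetase gene, fell by 1.32 and 2.17 in sub2del and tho2del, with -0.18 in hpr1del (adjusted p = 0.0987). BAT1, a branched-chain aminotransferase gene, was likewise at -0.15 in hpr1del (adjusted p = 0.178) and at -1.38 and -1.28 in the others.

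Uptake and charging of amino acids went the same way in the mean. Of 16 permease genes 11 were lower and 0 higher (median -0.67), with 9 common and 2 called in opposite directions in 2 mutants. PUT4, the proline permease gene, read 1146 to 1372 in WT, 369 to 455 in hpr1del, 98.3 and 78.1 in sub2del, with 82.7 and 164 in tho2del (log2 -2.77 ± 0.17). BAP3 (-1.22 ± 0.08), MUP1 (-1.17 ± 0.05) and AGP1 (-1.15 ± 0.07) were common. Aminoacyl-tRNA synthetase genes were lower in 13 of 18 cases and higher in 0 (median -0.20), for example DPS1, the aspartyl enzyme gene (-0.79 ± 0.07). By strain 7 were lower in hpr1del, 16 in sub2del and 11 in tho2del. Of the 18, 5 were common and lower, and 2 were called in opposite directions in 2 mutants.

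Cofactor and sterol genes were mostly lower as well. The NAD pathway made up most of the list of biotin and NAD genes, of which 11 of 16 were lower and 2 higher (median -0.62). BNA5, kynureninase, read 858, 1011 and 914 in WT, 198 to 219 in hpr1del, 182 and 202 in sub2del and, in tho2del, 260 and 297, a 3.93-fold lower mean (log2 -1.98 ± 0.07, adjusted p = 4.63e-07). BNA1 on chromosome X read 4619 and 7956 in WT, with the second cell empty, 1024 to 1121 in hpr1del, 472 and 610 in sub2del, with 636 and 511 in tho2del. BNA4 on chromosome II fell by 1.44 ± 0.10, and NRT1, a nicotinamide riboside transporter gene outside the list, by 2.63 ± 0.20. BIO2 rose, as given above, so the biotin and NAD genes of this list did not move as one. Ergosterol genes were lower in 21 of 24 cases and higher in 0 (median -0.63), with 10 common and lower. Their median was -0.38 in hpr1del against -0.90 in sub2del and -0.89 in tho2del. ERG3, the sterol desaturase gene, read 14401 to 18810 in WT, 6256 to 6910 in hpr1del, 4479 and 4716 in sub2del and, in tho2del, 6034 and 6028. ERG26 was at -1.10 in hpr1del and at -2.58 and -2.28 in the other mutants (F test adjusted p = 5.15e-05). Of 22 genes of purine and one-carbon synthesis 13 were lower and 1 higher (median -0.45), but only 7 were common and lower. The median was -0.11 in hpr1del (8 lower), -0.90 in sub2del (16 lower) and -0.62 in tho2del (12 lower). ADE17 had the lowest value of the list (log2 -2.12, named after its value was seen), and ADE13 (-1.14 ± 0.06) had the lowest adjusted p.

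Outside these groups, the lowest common genes included transporters of lipids, drugs and glucose. RSB1, a sphingoid base transporter gene, read 2004 and 1583 in WT, with the first WT cell empty, 125, 133 and 147 in hpr1del, 75.1 and 104 in sub2del, with 142 and 162 in tho2del. At 13.0-fold (log2 -3.70 ± 0.13, adjusted p = 9.76e-07) it was the largest common fall among named genes as ranked by the least changed strain. PDR15, an ABC transporter gene with 2 WT values, fell by 2.75 ± 0.09. HXT1, the low-affinity glucose transporter gene, read 10191, 13417 and 12890 in WT, 1483, 1243 and 1174 in hpr1del, 2245 and 2639 in sub2del and, in tho2del, 2613 and 2183. Here hpr1del fell most (log2 -3.21 against -2.30 and -2.33, F test adjusted p = 0.00155). MIG3, a repressor gene with 2 WT values, fell by 2.45 ± 0.10 and HXT3 by 0.86 ± 0.08. In the whole list of hexose transport and glucose sensing 7 of 14 were lower and 3 higher, HXT7 among the latter (log2 0.69, 2 WT values), whose sequence is nearly identical to that of HXT6. The uncharacterised YHR140W (log2 -3.17 ± 0.20), the methyltransferase gene TMT1 (-3.03 ± 0.19, 2 WT values), ICY1 (-3.08 ± 0.18), BSC1 (-3.13 ± 0.34) and YAR066W (-2.61 ± 0.15, 2 WT values, with mutant intensities from 16.1 to 45.0 near the offset) completed the lowest genes.

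**Figure D4:**
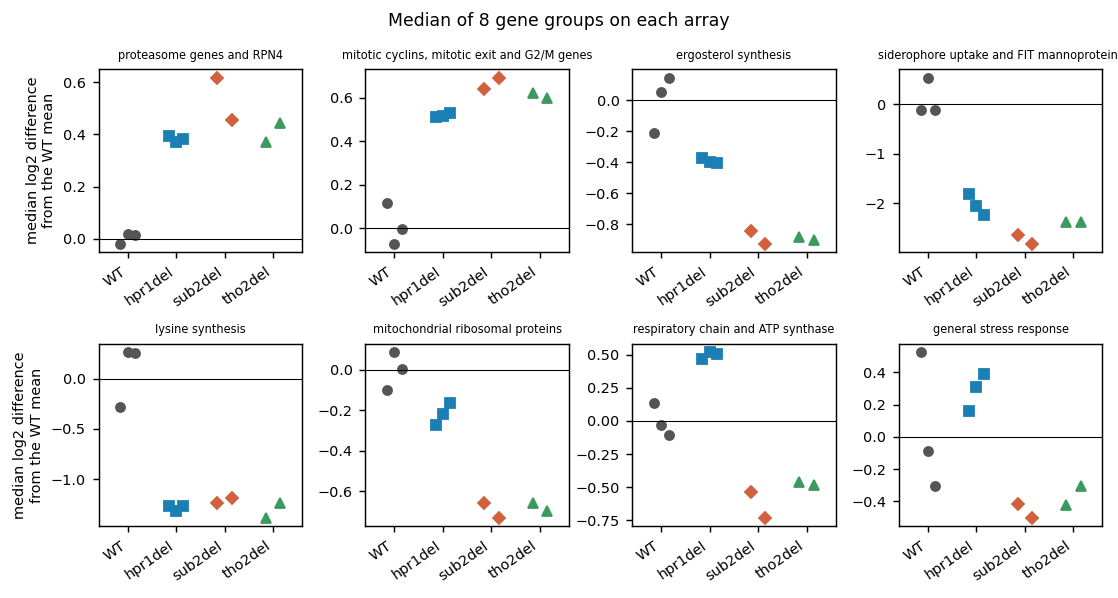
Median log2 difference from the WT mean (y axis, log2 of intensity + 16, a scale of its own in each panel) of 8 gene groups on each array, with 1 point per array. Proteasome, G2/M, ergosterol, siderophore, lysine and mitochondrial ribosome groups have all mutant arrays on one side of WT, whereas the respiratory chain has hpr1del from 0.47 to 0.52 and the others from -0.46 to -0.73, and general stress genes have WT replicate 1 at 0.53.

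Mitochondrial genes showed where the mutants shared a direction and where they did not. Mitochondrial ribosomal protein genes were lower in 47 of 61 cases and higher in 1 (median -0.56), with 25 common. MRPL44 read 1997 to 2200 in WT, 1287 to 1443 in hpr1del, 912 and 998 in sub2del, with 976 and 997 in tho2del (log2 -0.96 ± 0.06). MRPL38 and RSM28 had the same order (-1.04 ± 0.07 and -1.02 ± 0.07). The F test among the mutants was called in 58 of the 61, and the list median was -0.22 in hpr1del against -0.73 and -0.69 in sub2del and tho2del.

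Respiratory chain and ATP synthase genes encoded in the nucleus had no shared response at all. Among 39 measured, 30 were higher and 0 lower in the hpr1del strain (median 0.51). The sub2del strain had 25 lower and 0 higher (median -0.58), and the tho2del strain 22 lower and 0 higher (median -0.49). The mean of the mutants, 4 higher and 17 lower with a median of -0.15, describes none of these strains, and 0 of the 39 were common. The F test was called in 38 of them, and 22 were called in opposite directions in 2 mutants. CYC1 on chromosome X, cytochrome c, read 4379 and 6510 in WT, with the second cell empty, 9030, 9080 and 8925 in hpr1del, 3117 and 2561 in sub2del and, in tho2del, 1422 and 1111. RIP1, the Rieske iron-sulfur subunit, read 3887 to 4288 in WT, 5051 to 5575 in hpr1del, 1054 and 1152 in sub2del, with 1289 and 1453 in tho2del. General stress genes had medians of 0.31, -0.48 and -0.38 in hpr1del, sub2del and tho2del, but 2 of the 30 were called in opposite directions, 10 were called higher in hpr1del, and the F test was called in 20. WT replicate 1 lay 0.53 above the WT mean in that list, and the other WT arrays at -0.09 and -0.30. Without WT replicate 1 the list median in the mean did not reverse, and the part of this array in the strain medians was not tested. SPI1 (log2 -1.82 ± 0.11, 2 WT values) and YGP1 (-1.17 ± 0.09, 2 WT values) were the 2 common genes among the 30 of this list.

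In all, 215 probe sets (4.81%) were called in opposite directions in 2 mutants and in the F test. The largest class, 109, was higher in hpr1del and lower in sub2del, and 61 were higher in hpr1del and lower in tho2del (a probe set may count in both). CWP1, a cell wall mannoprotein gene, read 2280 to 2604 in WT, 9202 to 10776 in hpr1del, 1363 and 1469 in sub2del and, in tho2del, 5237 and 4517. YKR104W, which resembles part of an ABC transporter, read 400 to 881 in WT, 203 to 301 in hpr1del, and 2103 to 2943 in sub2del and tho2del. FPK1, a kinase gene of lipid flipping, had the same pattern, with 730 to 1352 in WT, 534 to 593 in hpr1del and 2600 to 3765 in the others. RRG8 followed it at lower intensity (63.0 to 71.5 in hpr1del, 100 to 182 in WT and 305 to 693 in the others). Among probe sets with an opposite call that were higher in sub2del, 61 lay on chromosomes II and X and 14 on the other 14 chromosomes.

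The mean response was also set against position, length and level. On chromosomes II and X 40.35% of 456 probe sets were higher and 22.37% lower, against 22.44% and 39.4% of 3850 on the other 14. For the common set the shares were 13.16% higher and 8.11% lower on II and X, against 9.92% and 18.57%. In 5 equal classes of coding length, from the R64 gene table, the median difference went from -0.04 in the shortest to -0.12 in the longest, and Spearman's rho across 4306 probe sets, which are not independent, was -0.04. In 5 equal classes of mean intensity over all arrays the median was -0.20 in the dimmest and -0.02 in the brightest.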

How the data were processed

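The authors deposited a table of linear intensities with 1 value for each array and probe set. How they corrected, summarised or scaled the signals was not given in the sources used here. Detection above background is unknown without scanner values, and precision is limited by there being 10 arrays. Array medians ran from 1346 to 1541. Probe sets were named through the platform annotation, with 12 symbols updated through the R64 gene table. Of the probe sets kept, 0 had several genes in that annotation, and 96 are of kinds that can bind several transcripts, whose values are uncertain.

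With the offset of 16 added, limma 3.58.1 (R 4.3.3) was run on log2 values over all 4 strains (lmFit and eBayes), without covariates. Empty cells were left out, not imputed. The script was tested on simulated data. Errors are SE. Gene groups are described by counts and medians, with no set test.

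The members and gene lists were chosen with earlier results of these data known. Named genes were the 15 highest and 15 lowest common genes by the least changed strain, up to 4 with the lowest adjusted p per list, 5 with opposite calls, and 8 fixed genes, and others are marked. The plan assumed that sequences would be at hand, and its search for promoter motifs was not run. No genome was used here, and no coordinates are printed because the build of the array is not stated.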

Additional observations from a re-analysis of the deposited data

How the results depend on the processing

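The counts of called and common probe sets kept within 1.5 times their value under all 24 alternatives. Leaving out 1 array at a time gave 2556 to 3009 called in the mean, the most without WT replicate 1, and array weights gave 3564. The weight was 0.10 for WT replicate 1 and 6.50 for WT replicate 3. Of the 1244 common probe sets, 1014 (without hpr1del replicate 2) to 1244 were kept where all could be tested. The 1244 came from weighting the 7 mutant arrays equally and from hpr1del and tho2del only. These settings reuse the strain calls of the main fit, so this number was nearly fixed beforehand. The next highest was 1242, with an offset of 64. Of those called in the mean 39.18% were higher, 47.91% after array medians were subtracted and 45.42% after quantile normalization. With a term for arrays with many empty cells (the empty-cell block) 2675 of 4322 were called. Of the 1175 common probe sets that this block could test, 974 were kept. Replicate numbers did not pair the arrays (same-numbered correlations from -0.21 to 0.11), and with the replicate block 2555 were called, with RRG8 losing its call. Alternatives on chromosomes II and X were chosen after seeing the data. With hpr1del and tho2del only, 2493 were called, and SUB2 (0.0714), RPS22B (0.00963) and the list medians of the respiratory chain (0.0183) and of oxidant response genes (0.0264) turned positive. The oxidant response median (-0.09) was also 0.00819 without these chromosomes and 0.101 with the medians of the other chromosomes subtracted, where glycolysis (-0.09) came to 0.00439. The meiosis median (0.22) was -0.0172 without WT replicate 1 and 0.521 without WT replicate 2. The cause was not tested. Among named genes, the calls of HHT2, TEX1, RNH203, RRP6, OSW2, YKR104W, FPK1 and RRG8 were lost under at least 1 alternative, and THP2 gained one. Only 2 arrays each of sub2del and tho2del limit what their spread can show.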

Other observations

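Central carbon metabolism held little shared change. Of 22 genes of glycolysis and ethanol fermentation 2 were higher and 9 lower (median -0.09), of 17 citric acid cycle genes 2 and 8 (median -0.23), and of 17 genes of glycogen and trehalose metabolism 2 and 5 (median -0.29). In that last list WT replicate 1 lay 0.55 above the WT mean and the other WT arrays at -0.10 and -0.26. Without WT replicate 1 its median did not reverse, and how far it moved is not given here. Of 14 genes of oxidant response, with aryl-alcohol dehydrogenases, 3 were higher and 5 lower (median -0.09). Of 44 spliceosome genes 17 were higher and 10 lower (median 0.08), among them MUD2, which binds the branch point region (log2 0.87 ± 0.07), and LSM5 (-1.16 ± 0.08), both common to the 3 mutants. Of 9 histone genes 1 was higher and 4 lower, and 0 were common. Of 12 meiosis genes 4 were higher and 1 lower, and 31 more on the array were not among the probe sets kept. SSP2, a spore wall gene, read 90.7 to 170 in WT, 206 to 239 in hpr1del and 463 to 630 on the remaining arrays (log2 1.55 ± 0.15). Of 11 phosphate genes 7 were lower and 0 higher in the mean, but 2 were common and 5 were called in opposite directions in 2 mutants. The hpr1del strain had 5 higher and 3 lower, sub2del 1 and 10, and tho2del 0 and 10. PHO84, the high-affinity phosphate transporter gene, read 9866 to 16099 in WT, 12271 to 13287 in hpr1del, 3506 and 5458 in sub2del but 1059 and 852 in tho2del, so that hpr1del alone overlapped WT. Of 22 heat shock chaperone genes 12 were lower and 5 higher, the latter including SSA4 (log2 1.14 ± 0.18) and, on chromosome II, SSA3 (1.33 ± 0.12).

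SAG1, the alpha-agglutinin gene that MATa cells normally keep low, read 600 to 749 in WT, 1048 to 1160 on the hpr1del arrays, 2434 and 3782 on those of sub2del and 1696 and 2076 on those of tho2del (log2 1.44 ± 0.14, adjusted p = 3.13e-05). It was read as a mating type check and stands on chromosome X. STE3, the a-factor receptor gene of alpha cells, was lower in the mean (log2 -0.55 ± 0.14, adjusted p = 0.0073).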
